A study of Mus musculus with 20 samples.

Results

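Weakly transcribed enhancers were taken as those with fewer than 15 tags in all over 20 libraries, and they were read as a pool because few of them carry enough tags to be read one by one. The rule found 3702 members among the 11222 enhancers counted (33.0%), and the members were chosen by the measured tag totals themselves. The libraries are cap analysis of gene expression (nAnT-iCAGE, a form without amplification) of bulk cultures of macrophages grown from C57BL/6 mouse bone marrow with macrophage colony-stimulating factor. Cells were given IFN-γ together with CpG DNA, CpG alone or IFN-γ alone, each for 3, 9 or 15 h, or were left unstimulated (0 h), with 2 libraries in each of the 10 groups. The series calls the 2 libraries of a group biological replicates. The number of mice behind a culture is not given, and permutation p-values of pools measure the spread between these libraries. The edgeR p-values of single enhancers rest on a spread that is shared over the whole table, and hardly on the enhancer's own replicates. The protocols also describe polarization with IL-4 and IL-10 and a stimulation of another length, and whether these apply to the cells sequenced here is not stated. No unstimulated culture was kept to 3, 9 or 15 h, so a comparison with unstimulated cells also holds the time in culture. Gene transcripts are not in the enhancer tables, so markers of macrophages or of other cells were not checked.

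Active enhancers are transcribed from their edges into short, capped and mostly unstable RNAs, and the capped 5′ ends of these RNAs are what CAGE counts. IFN-γ acts through a receptor on the cell surface and activates many macrophage enhancers. CpG DNA is sensed in endosomes by the receptor TLR9, which signals through MyD88 to NF-κB and the MAP kinases, and the combination of an interferon with a Toll-like receptor ligand is a classical way to activate macrophages. The treatment protocol names CpG ODN-1826 as the oligonucleotide. Its 20 bases are shown because they are the stimulus, with the 2 CG dinucleotides that TLR9 recognises in capitals.
CpG ODN-1826: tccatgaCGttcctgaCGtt

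The 3702 weak enhancers held 35784 of the tags, which is 8.89% of all enhancer tags. Their totals ran from 2 to 14 tags with a median of 10, against a median of 31 and a maximum of 2132 tags in the other enhancers. There were 1973 weak enhancers with 10 to 14 tags and 95 with fewer than 5. The limit of 15 fell on a smooth slope, with 368 enhancers at 14 tags just inside it and 340 at 15 tags just outside it. The first enhancer by position with 14 tags, chr1:37517653-37517755 (mm39, positions as deposited), had tags in 6 libraries, and the first with 15 tags, chr1:55066066-55066134, had them in 11. Weak enhancers were narrower than the rest, with a median width of 220 bp against 322 bp, and the median width went up with the tag total from 196 bp (2 to 7 tags) to 399 bp (60 tags or more). They stood farther from the next enhancer, at a median distance of 7513.5 bp against 2226 bp, and 21.8% against 35.5% had another enhancer within 1 kb. No weak enhancer overlapped another enhancer. By chromosome, weak enhancers were 28.3% of the enhancers on chromosome 6 and 44.1% of those on chromosome X (83 of 188), with the other autosomes between. Width and position are not independent of the tag total that chose the members, so these values are a description.

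In every library the pool was a small share of enhancer transcription. It held 1121 to 3031 tags per library, which was 7.72% (IFN-γ 3 h, replicate 1) to 10.2% (both agents 3 h, replicate 2) of the enhancer tags of a library. Whole libraries ranged over 12776280 to 13855472 tags and enhancers took 12879 to 29794 of them, so that weak enhancers were 0.00862% to 0.0224% of a library. The pooled level is given as the summed tags of weak enhancers scaled to the whole-library total (RPM, the unit of the second deposited table). Exact 95% binomial (Clopper-Pearson) intervals, which cover counting error only, ran from 81.3 to 91.4 RPM in the library with the lowest pool and from 216 to 232 RPM in that with the highest. The intervals of the 2 replicates overlapped in 5 of the 10 groups (both agents at 9 h, CpG at 9 and 15 h, IFN-γ at 15 h, and unstimulated cells). Enhancer totals differed more between libraries than whole-library totals did: replicate 2 of both agents at 3 h, of both agents at 15 h and of IFN-γ at 9 h had the most enhancer tags of all 20 libraries. These libraries also had the highest shares of weak enhancers, at 10.2%, 9.36% and 9.53% of their enhancer tags.

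The pooled level of weak enhancers differed among the groups by less than 2-fold on average, and the replicates of some groups were as far apart as the groups. With both agents, the pool reached 142 and 224 RPM at 3 h, 119 and 112 RPM at 9 h, and 140 and 195 RPM at 15 h. With CpG alone it was 102 and 125 RPM at 3 h, 148 and 145 RPM at 9 h, and 135 and 125 RPM at 15 h. With IFN-γ alone it was 102 and 86.2 RPM at 3 h, 111 and 171 RPM at 9 h, and 108 and 117 RPM at 15 h. Unstimulated libraries had 140 and 130 RPM. Both libraries lay above both unstimulated libraries in 2 of the 9 stimulated groups (both agents at 3 h and CpG at 9 h), 4 groups lay wholly below (IFN-γ at 3 and 15 h, CpG at 3 h, both agents at 9 h) and 3 overlapped them. In these bulk libraries, fewer cells that transcribe an enhancer and less RNA per cell cannot be told apart.

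**Figure D1:**
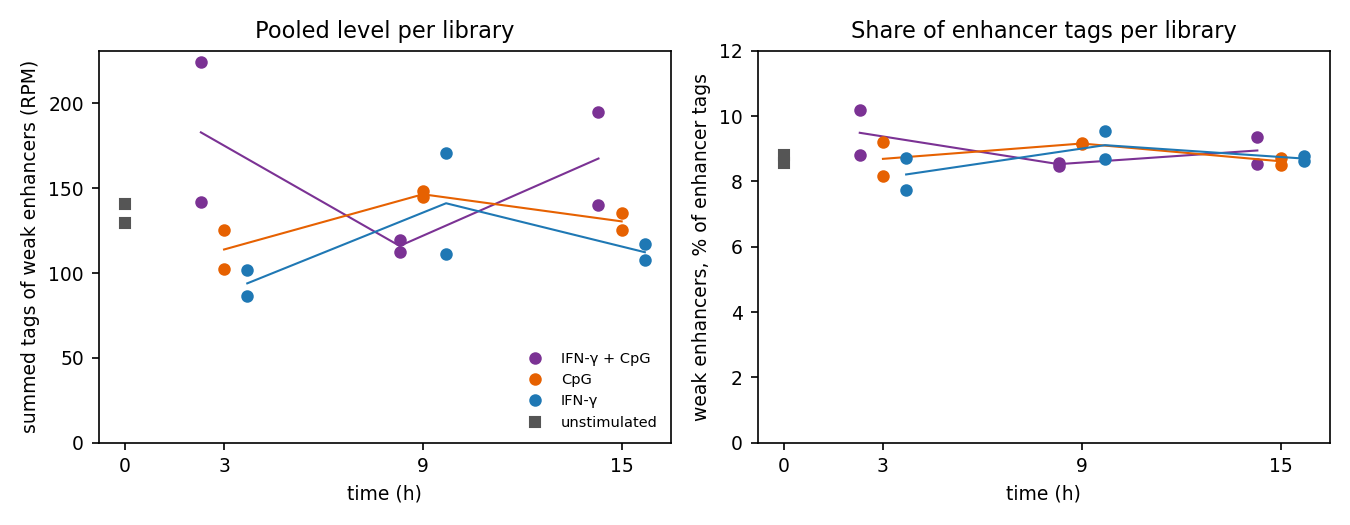
Left, summed tags of the 3702 weak enhancers in RPM of the whole library; right, their share of enhancer tags in percent, both by time in hours, with 1 point per library and lines through group means. The pooled level spreads from 86.2 to 224 RPM, while the share stays between 7.72% and 10.2%.

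As means, the pool stood at 183 ± 58.2, 116 ± 4.93 and 167 ± 39.1 RPM with both agents at 3, 9 and 15 h (SD, n = 2 each), against 135 ± 7.69 RPM in unstimulated cells. These are 1.35, 0.859 and 1.24 times the unstimulated mean, and the other 7520 enhancers gave 1.22, 0.877 and 1.20 times theirs. CpG alone gave 114 ± 16.1, 146 ± 2.40 and 130 ± 7.20 RPM, or 0.843, 1.08 and 0.966 times the unstimulated mean, where the other enhancers gave 0.842, 1.02 and 0.976 times. IFN-γ alone gave 93.9 ± 10.8, 141 ± 42.2 and 112 ± 6.55 RPM, or 0.696, 1.04 and 0.831 times, where the others gave 0.747, 0.985 and 0.831 times. The weak pool thus followed the stronger enhancers group by group. It followed them library by library as well: in 10 of 10 groups the replicate with the higher weak pool also had the higher level of other enhancers. The ratio between replicates was largest with both agents at 3 h, at 1.58-fold for weak and 1.35-fold for other enhancers. With 2 libraries against 2, the smallest two-sided p of an exact test is 0.333. Single groups are therefore given as values against unstimulated cells, and a model that shares the spread over groups was not run on the pool.

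Pooled over times, no comparison of the weak pool passed an exact two-sided permutation test over libraries, with p adjusted over the 10 pooled tests. The 18 stimulated libraries averaged 134 RPM against 135 RPM in the 2 unstimulated ones, a mean log2 difference of -0.05 (exact permutation p = 0.832). Libraries with both agents averaged 155 RPM against 130 RPM with CpG alone, a log2 difference of 0.22 within times (exact permutation p = 0.315), with 0.65 at 3 h, -0.34 at 9 h and 0.34 at 15 h. Against IFN-γ alone (116 RPM), both agents gave 0.41 (exact permutation p = 0.120), with 0.93, -0.25 and 0.56 at the 3 times. CpG alone against IFN-γ alone gave 0.19 (exact permutation p = 0.120), and 15 h against 3 h within stimuli gave 0.12 (exact permutation p = 0.417). Adjusted p-values were 0.602 to 0.924 for these 5 tests. The differences from IFN-γ turned on 1 library: without replicate 2 of IFN-γ at 9 h, both agents against IFN-γ gave 0.52 (exact permutation p = 0.0185) and CpG against IFN-γ gave 0.30 (exact permutation p = 0.00926), both before adjustment. Without the 3 libraries of highest enhancer totals, the log2 differences were -0.17 for stimulated against unstimulated libraries, 0.03 for both agents against CpG, 0.32 for both agents against IFN-γ, 0.30 for CpG against IFN-γ and 0.15 for 15 h against 3 h.

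Set against the other enhancers of the same library, the weak pool moved even less. The log2 ratio of weak to other enhancer tags differed by 0.02 between stimulated and unstimulated libraries, by 0.03 between both agents and CpG, by 0.06 between both agents and IFN-γ, by 0.03 between CpG and IFN-γ and by -0.003 between 15 h and 3 h. Exact permutation p-values were 0.519 to 0.963 and adjusted values 0.924 to 0.963. A p that misses the threshold does not show that the ratio was equal, and these are the sizes that the 20 libraries gave.

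All enhancers were also split into 7 classes by their tag total. For both agents against IFN-γ, the log2 difference of the summed RPM was 0.52, 0.39 and 0.39 in weak enhancers of 2 to 7, 8 to 11 and 12 to 14 tags, against 0.45, 0.37, 0.35 and 0.34 in enhancers of 15 to 19, 20 to 29, 30 to 59 and 60 or more tags. For both agents against CpG the 3 weak classes gave 0.19, 0.18 and 0.28, against 0.19 to 0.20 in the 4 stronger classes. CpG against IFN-γ gave 0.33, 0.22 and 0.12 in the weak classes, against 0.15 to 0.25 in the stronger ones. The weakest class of 949 enhancers had the lowest value of the 7 classes for IFN-γ at 3 h over unstimulated cells, at -0.66, against -0.39 in the strongest class. For IFN-γ at 9 h over unstimulated cells the sign differed from class to class, with -0.17, 0.04 and 0.17 in the weak classes against -0.02, 0.09, 0.04 and -0.08 in the stronger ones. For CpG at 9 h the values were 0.18, 0.16 and 0.03, against 0.12, 0.13, 0.06 and -0.01. No test was made among classes, which share libraries and scaling.

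**Figure D2:**
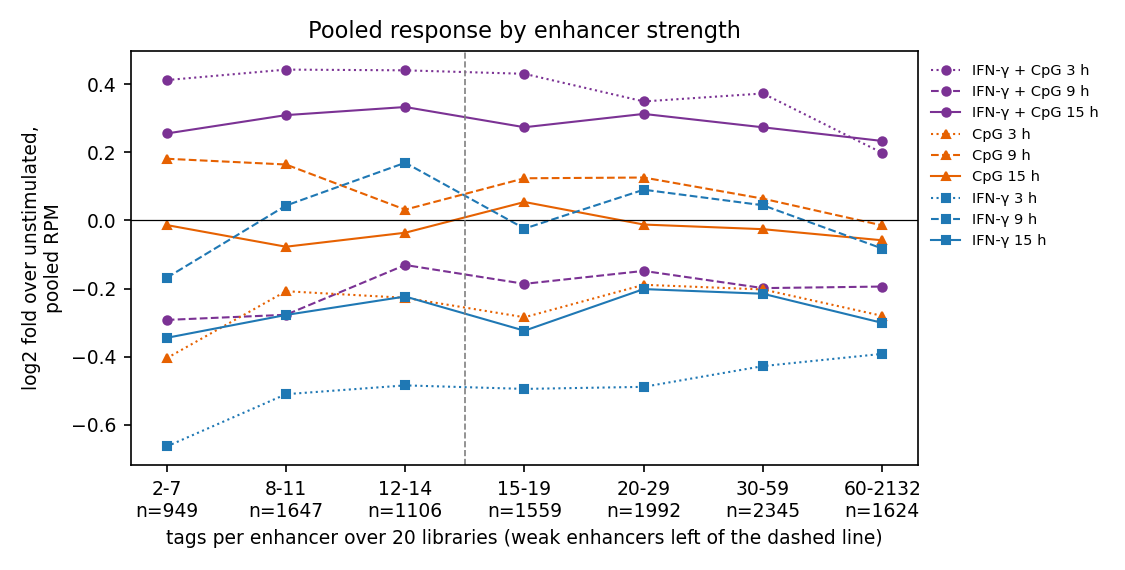
Log2 fold of summed RPM over unstimulated cells (means of 2 libraries) in 7 classes of enhancers by tags over 20 libraries, with 1 line for each stimulus and time; classes left of the dashed line are weak enhancers. Across the limit of 15 tags, the line of both agents at 3 h has 0.44 at 12 to 14 tags and 0.43 at 15 to 19 tags, while that of IFN-γ at 9 h has 0.17 and -0.02 and that of CpG at 9 h 0.03 and 0.12.

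A weak enhancer was typically seen in a minority of libraries, and 52.0% of them had tags under all 3 stimulations. A library had tags in 847 (IFN-γ 3 h, replicate 2) to 1699 (both agents 3 h, replicate 2) of the weak enhancers, or 22.9% to 45.9%. A weak enhancer had tags in a median of 6 libraries (quartiles 5 and 8, range 1 to 13), and 186 had tags in 10 or more. Only 5 had all their tags in 1 library, 72 in 2 libraries, and 16 within 1 group. The broadest, chrX:95165532-95166114, had 14 tags in 13 libraries, with 4 tags with both agents, 6 with CpG, 2 with IFN-γ and 2 in unstimulated cells, and no more than 2 in any library. Another of the broadest, chr10:121311204-121311445, had 14 tags in 12 libraries: 5 with both agents, 3 with CpG and 6 with IFN-γ, and none in unstimulated cells. Breadth therefore did not need a tag in every condition.

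Tags of single weak enhancers were more clustered than library totals alone would place them. The mean number of tagged libraries was 6.31, against 7.69 if each enhancer's tags had fallen on libraries in proportion to whole-library totals. Every enhancer in the table, weak or not, had at least 2 tags in 1 or more libraries, which placement by library totals does not ask for. Among weak enhancers the fullest library held 2 tags in 1442 cases, 3 tags in 1506 and 4 or more in 754, with a maximum of 8. In 436 weak enhancers (11.8%), 1 library held 50% or more of the tags. The gap was present at every tag total, with 8.56 tagged libraries against 10.2 for weak enhancers of 14 tags.

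**Figure D3:**
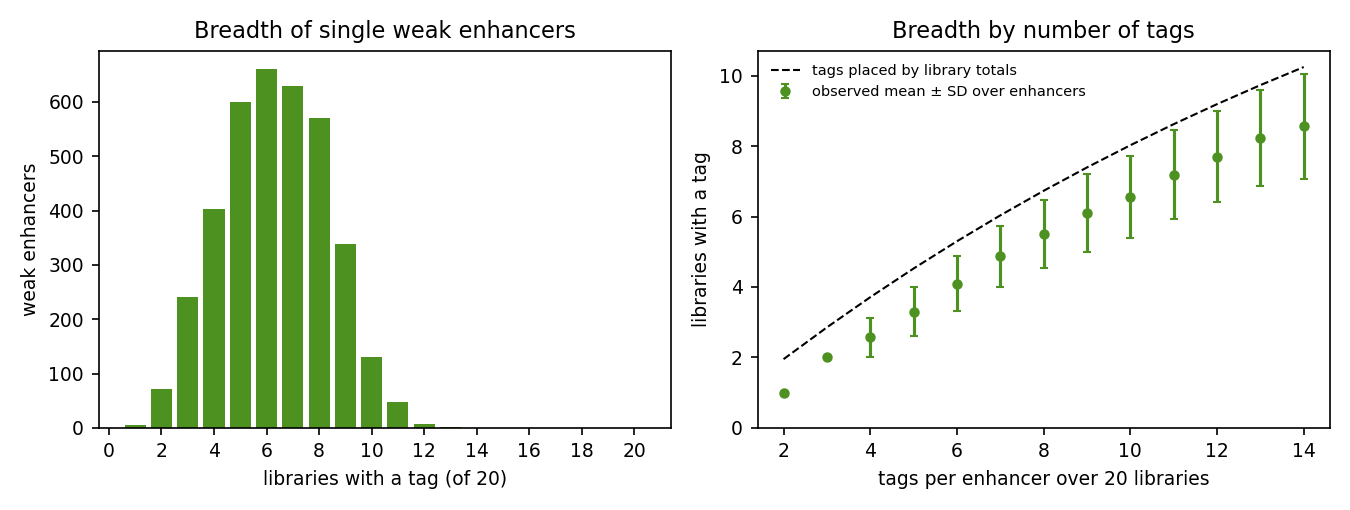
Left, number of weak enhancers by the number of libraries with a tag; right, mean number of libraries with a tag by the enhancer's tag total (error bars, SD over enhancers), with a dashed line for tags placed in proportion to library totals. The left distribution peaks at 6 libraries, and the points on the right lie below the line throughout.

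Across conditions, 1925 weak enhancers (52.0%) had tags under all 3 stimulations, and 994 (26.9%) had them in unstimulated cells as well. There were 1955 (52.8%) without a tag in the 2 unstimulated libraries, where each stimulation had 6 libraries to show one. Tags lay only in libraries with both agents for 51 weak enhancers, only with CpG for 35, only with IFN-γ for 28 and only in unstimulated libraries for 3. The like counts are not given for the other enhancers, and weak enhancers hold few tags, so these counts do not rank the stimuli. Over equal numbers of libraries (6 against 6), 1882 weak enhancers had more tags with both agents than with CpG, 1433 fewer and 387 the same number. For both agents against IFN-γ the counts were 1993 more, 1256 fewer and 453 equal, and for CpG against IFN-γ 1782, 1558 and 362. The other enhancers leaned the same way, with 3984 of 7520 higher with both agents than with CpG (53.0%, against 50.8% of weak enhancers) and 4529 higher than with IFN-γ (60.2%, against 53.8%).

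Although single weak enhancers carry few tags, where those tags fell was repeated in the second replicate of a group. Weak enhancers with 3 or more tags in a library were chosen there and read in the other library of the group, and in the libraries of that replicate number from the other 9 groups. For replicate 1 of both agents at 3 h, 163 weak enhancers were chosen, and they had 1.32 tags per enhancer in replicate 2, against 0.316 in the other groups. Those chosen in replicate 2 (343) had 0.904 tags per enhancer in replicate 1, against 0.330 in the other groups. For unstimulated cells the values were 0.933 against 0.361 tags per enhancer (194 chosen in replicate 1) and 1.10 against 0.323 (144 chosen in replicate 2). The held-out library of a group was above the mean of the other groups in all 20 readings.

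Scaled to the whole weak pool of each library, the held-out reading was 1.54 to 2.86 times the mean of the other groups, with a median of 2.20. The lowest was IFN-γ at 3 h read in replicate 1, from 53 enhancers, and the highest was unstimulated cells read in replicate 1, from 144. The own group ranked first among the 10 groups in 15 of 20 readings and second in the other 5. Of the chosen enhancers, 28.3% to 66.3% had a tag in the held-out library, against 22.6% to 29.5% in the other groups. Readings of different groups share libraries and enhancers, and no p is given for them.

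**Figure D4:**
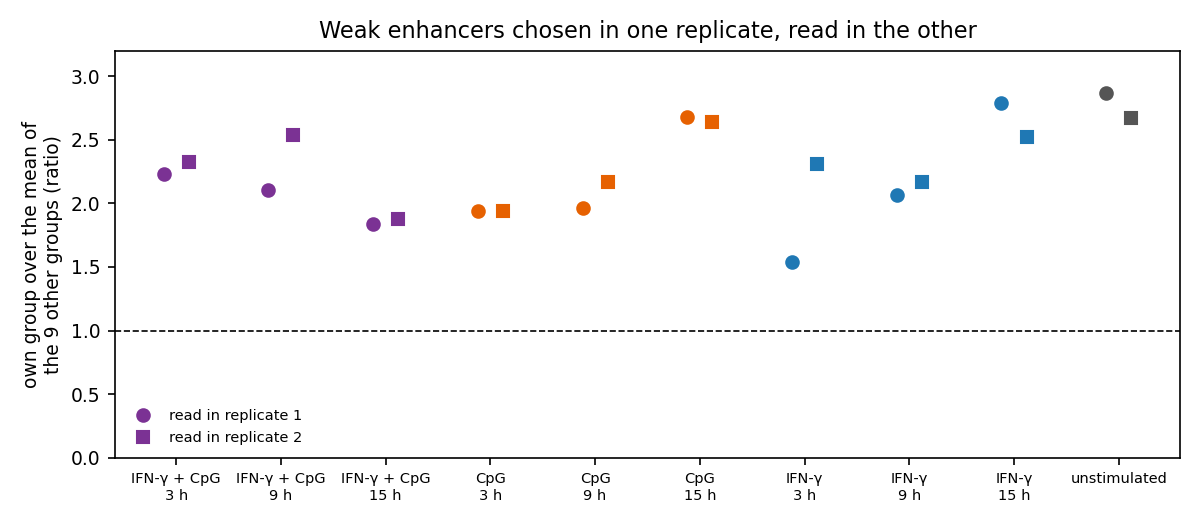
Summed level of weak enhancers with 3 or more tags in 1 replicate, read in the other replicate and divided by the mean of the 9 other groups, each relative to its whole weak pool; circles were read in replicate 1 and squares in replicate 2. All 20 points lie above the dashed line at 1, between 1.54 and 2.86.

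Weak enhancers close to strong enhancers that had responded to IFN-γ were higher with both agents than with CpG alone. Among 2792 enhancers with enough tags to be tested one by one, none of them weak, 480 (17.2%) were higher with IFN-γ alone than in unstimulated cells at 1 or more times (edgeR quasi-likelihood test, adjusted p under 0.05). Of the weak enhancers, 429 (11.6%) lay within 50 kb of such an IFN-γ-gained enhancer, at a median distance of 10803 bp, and 937 lay within 50 kb of tested enhancers none of which was called. The calls behind these neighbour classes compared IFN-γ with unstimulated libraries, and the weak enhancers were read in the 12 libraries with both agents or with CpG. Those 12 libraries also entered the shared estimates of spread and scaling. They entered the choice of enhancers with enough tags to be tested and the limit on tags of the weak ones as well, so the classes are not fully independent of them.

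Near IFN-γ-gained enhancers, the weak pool had 20.1 and 29.9 RPM with both agents at 3 h, against 7.17 and 9.32 RPM with CpG. At 9 h it had 17.4 and 17.6 RPM with both agents, against 10.3 and 11.4 RPM with CpG. At 15 h it had 19.8 and 27.3 RPM with both agents, against 9.84 and 8.22 RPM with CpG. All 6 libraries with both agents were above all 6 with CpG. Relative to weak enhancers near uncalled enhancers, the mean log2 difference was 1.03 (2.04-fold), with 1.06, 1.04 and 0.99 at 3, 9 and 15 h. The exact permutation p was 0.00926, the smallest that 216 arrangements can give, and it was the same after adjustment over the 2 tests. By enhancer, 300 of the 429 had more tags with both agents, 83 fewer and 46 equal, against 467, 375 and 95 of the 937 near uncalled enhancers. Without the 3 libraries of highest enhancer totals the difference was 1.04 (exact permutation p = 0.0185). In the groups that defined the classes the ratio to weak enhancers near uncalled enhancers averaged 0.60, 0.68 and 0.63 with IFN-γ alone at 3, 9 and 15 h, against 0.24 in unstimulated cells. CpG alone, at 0.27, 0.26 and 0.26, was close to that unstimulated value.

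Near enhancers that CpG alone had raised, the reading with both agents against IFN-γ was of like size. There were 189 such CpG-gained enhancers (6.77% of those tested), 207 weak enhancers within 50 kb of them and 1301 near uncalled enhancers. At 3 h the 207 had 7.36 and 12.1 RPM with both agents, against 3.55 and 4.08 RPM with IFN-γ. At 9 h they had 9.69 and 9.59 RPM with both agents, against 4.40 and 4.36 RPM with IFN-γ. At 15 h they had 10.5 and 17.0 RPM with both agents, against 4.08 and 3.14 RPM with IFN-γ. All 6 libraries with both agents were again above all 6 of the other group, also relative to weak enhancers near uncalled enhancers. That relative log2 difference was 1.12 (2.18-fold, exact permutation p = 0.00926, the smallest possible), with 0.60, 1.36 and 1.41 at 3, 9 and 15 h, and 160 of the 207 had more tags with both agents, 31 fewer and 16 equal. Without those 3 libraries it was 0.93 (exact permutation p = 0.0370). Near both kinds of gained enhancer lay 71 weak enhancers, which count in each reading.

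Near lowered enhancers the pool moved the other way, in readings added after the data were seen. IFN-γ alone had lowered 273 tested enhancers (9.78%), with 257 weak enhancers within 50 kb. Relative to weak enhancers near uncalled enhancers these were lower with both agents than with CpG, by a mean log2 difference of -0.75 (0.593-fold, exact permutation p = 0.00926), with all 6 libraries with both agents below all 6 with CpG. CpG alone had lowered 125 (4.48%), with 102 weak enhancers near them, and both agents against IFN-γ gave -0.66 (0.632-fold, exact permutation p = 0.00926, 6 of 6 below). With whole-library totals in place of weak enhancers near uncalled ones, this last difference was -0.34 and did not pass (exact permutation p = 0.204). Without the 3 libraries the 2 differences were -0.77 and -0.56.

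**Figure D5:**
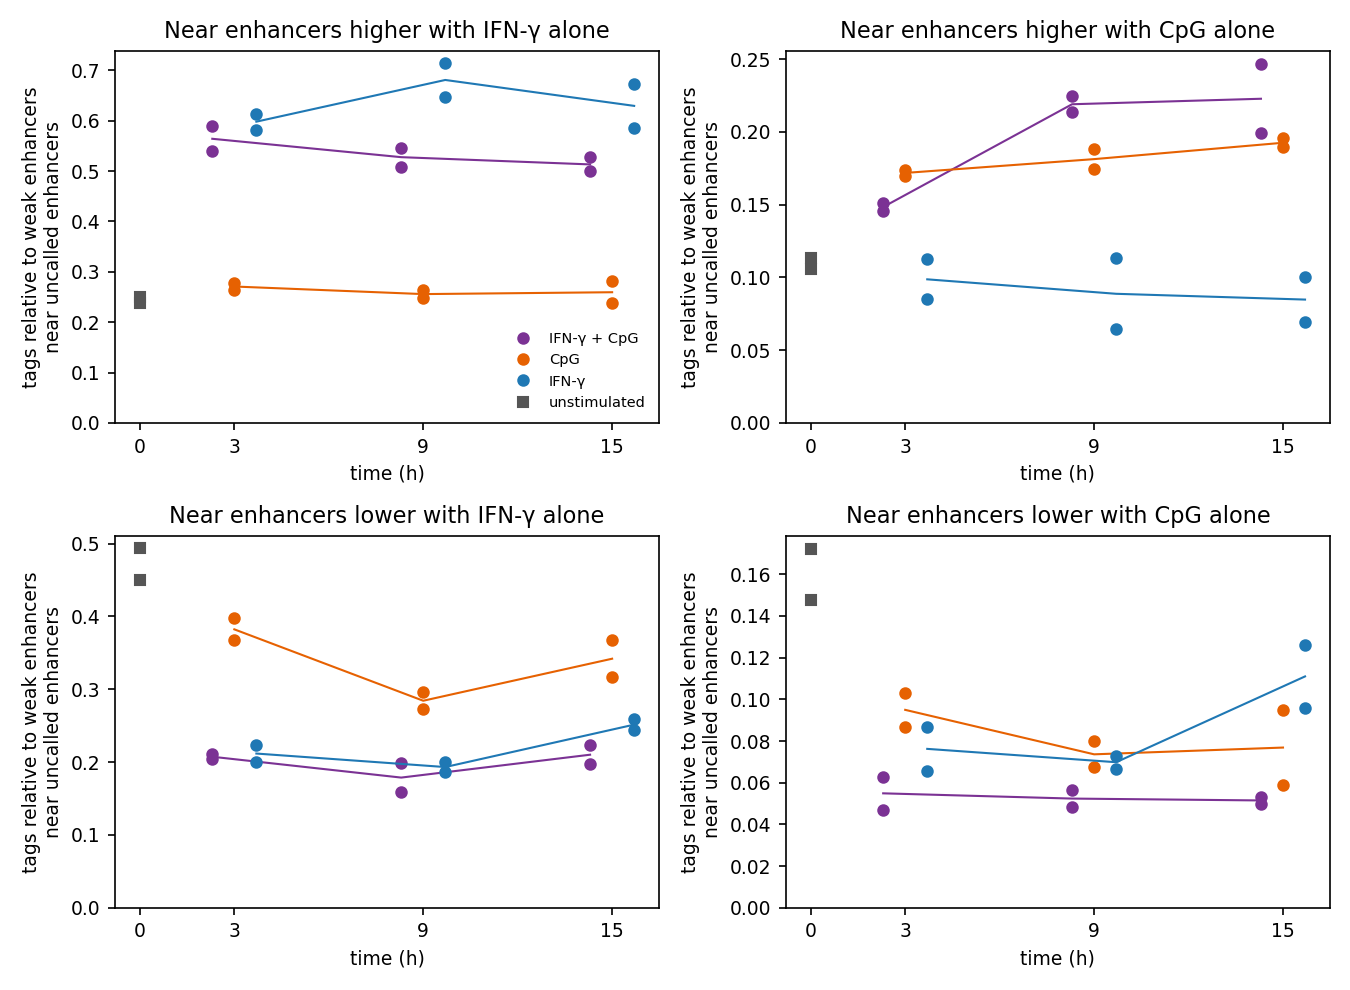
Tags of weak enhancers within 50 kb of enhancers that were higher (top) or lower (bottom) with IFN-γ alone (left) or CpG alone (right), divided by tags of weak enhancers near uncalled enhancers, by time in hours, 1 point per library. At top left, libraries with both agents and with IFN-γ alone lie at 0.499 or more, and CpG and unstimulated libraries at 0.281 or less.

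Around IFN-γ-gained enhancers the reading was smaller in each ring farther out. Against CpG, in RPM of the whole library, weak enhancers within 1 kb of an IFN-γ-gained enhancer were 3.91-fold higher with both agents (48 enhancers, 198 tags against 50). Those at 1 to 10 kb were 2.92-fold higher (159 enhancers), those at 10 to 50 kb 1.93-fold (222), those at 50 to 200 kb 1.27-fold (341) and those at 200 to 1000 kb 1.03-fold (751), where all weak enhancers gave 1.16-fold. Around CpG-gained enhancers, both agents against IFN-γ gave 2.79-fold within 1 kb (16 enhancers), 3.60-fold at 1 to 10 kb (57), 2.42-fold at 10 to 50 kb (134), 1.75-fold at 50 to 200 kb (230) and 1.15-fold at 200 to 1000 kb (452), against 1.33-fold in all weak enhancers. The 16 enhancers within 1 kb are too few to place that ring in an order. Around IFN-γ-lowered enhancers, both agents against CpG gave 0.481-fold within 1 kb (27 enhancers), 0.626-fold at 1 to 10 kb (86), 0.749-fold at 10 to 50 kb (144), 0.995-fold at 50 to 200 kb (199) and 1.05-fold at 200 to 1000 kb (566). Around CpG-lowered enhancers, both agents against IFN-γ gave 0.473-fold (18 enhancers), 0.903-fold (26), 0.832-fold (58), 1.01-fold (83) and 1.28-fold (337) in the same rings, which do not follow the order of distance at 1 to 50 kb. These rings were drawn after the data were seen and carry no test.

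Single weak enhancers show what these sums are made of. Near an IFN-γ-gained enhancer, chr1:125378037-125378244 had 8 tags with both agents in 4 libraries, 6 with IFN-γ in 3 and none with CpG or in unstimulated cells. Its neighbour 15987 bp away, chr1:125394231-125394817, had 59 tags with both agents, 7 with CpG, 41 with IFN-γ and none in unstimulated cells. The weak enhancer chr1:58766923-58767329 lay 162 bp from chr1:58766221-58766761 and had 5 tags with both agents, 2 with CpG, 7 with IFN-γ and none in unstimulated cells, where its neighbour had 200, 113, 114 and 38. Near a CpG-gained enhancer, chr10:44258977-44259312 had 11 tags with both agents, 3 with IFN-γ and none with CpG or in unstimulated cells, and chr11:117855526-117855881 had 6 with both agents, 7 with CpG, 1 with IFN-γ and none in unstimulated cells. A weak enhancer did not always carry the pattern of its neighbour: the CpG-gained enhancer beside chr10:44258977-44259312, 1197 bp away, had 25 tags with both agents, 12 with CpG, 39 with IFN-γ and none in unstimulated cells. The CpG-gained enhancer 22956 bp from chr11:117855526-117855881 also had more tags with IFN-γ (127) than with CpG (70). So did the one 4248 bp from the weak enhancer chr1:184354848-184355027, with 16 against 14. Each weak enhancer named here held 14 tags in all, the most that the limit allows. They are examples and not a ranking, and each value is a description.

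Tested one by one with edgeR over all 11222 enhancers without a filter on low counts, no weak enhancer was called at an adjusted p under 0.05 for any stimulus at any single time against unstimulated cells. With both agents at 3, 9 and 15 h, 5.04%, 3.51% and 4.3% of all enhancers were called, and 163, 86 and 112 weak enhancers had an unadjusted p under 0.05, where 19.2%, 15.9% and 16.9% of all enhancers did. With CpG the called shares were 0.169%, 0.659% and 0.757%, and 42, 70 and 66 weak enhancers had an unadjusted p under 0.05, where 6.31%, 9.5% and 9.51% of all enhancers did. With IFN-γ the called shares were 1.25%, 2.81% and 1.85%, and 47, 96 and 63 weak enhancers had an unadjusted p under 0.05, where 10.5%, 14.1% and 12.6% of all enhancers did. No weak enhancer held more than 14 tags over the 10 groups. DESeq2 gave no adjusted p to any of the 3702 members.

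Averaged over the 3 times, 51 weak enhancers were called by edgeR in 1 or more of 7 comparisons. Against unstimulated cells, 23 fell with both agents (4.69% of all enhancers were called lower), 4 fell with IFN-γ (2.52% lower) and none was called with CpG (1.19% called, and 132 weak enhancers with an unadjusted p under 0.05 where 11% of all enhancers had one). The 23 had 5 to 8 tags in the 2 unstimulated libraries and at most 1 tag in the 6 libraries with both agents, and 16 had none. No weak enhancer was called higher than in unstimulated cells, and the most tags that a weak enhancer without an unstimulated tag had under 1 stimulation was 14 with both agents, 13 with CpG and 13 with IFN-γ. The one with all 14 tags with both agents, chr17:18135128-18135663, had an edgeR adjusted p of 0.193 against unstimulated cells. Under the limit on tags a rise could hardly pass this test, so calls in 1 direction only do not give a direction of response. With both agents against CpG, 5 rose (5.13% of all enhancers were called higher). With CpG against IFN-γ, 6 rose and 15 fell (6.14% and 7.03% of all enhancers were called higher and lower), a split that turned round with whole-library totals, where 14 rose and 8 fell (821 higher and 668 lower among all enhancers). None was called for both agents against IFN-γ (4% called, and 159 with an unadjusted p under 0.05 where 16.2% of all enhancers had one) or for 15 h against 3 h (1.01% called, and 72 with an unadjusted p under 0.05 where 10.1% of all enhancers had one). All these shares of weak enhancers lay below those of the whole table. In 1 draw of simulated counts with an 8-fold rise with CpG, 50 weak enhancers of 10 to 14 tags and 50 others were raised. The test of CpG against IFN-γ found 2% of these raised weak enhancers and 60% of the raised others. A low share of calls is therefore not a measure of how many weak enhancers changed.

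The calls were fragile, since single libraries carried much of each count. The 4 falls with IFN-γ became 0 to 2 and the 23 falls with both agents became 1 to 12 without any 1 of the 8 libraries compared. The 5 rises over CpG became 0 to 2 without any 1 of 10 of the 12 libraries compared, all but replicate 1 of both agents at 3 h and at 15 h. The 21 calls of CpG against IFN-γ became 3 to 11 without any 1 of 11 of the 12 libraries, all but replicate 1 of IFN-γ at 9 h. Without the 3 libraries of highest enhancer totals, the 4 counts were 0, 0, 1 and 3.

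The weak enhancer most tied to the combination was chr17:18135128-18135663, a region of 535 bp. It had 14 tags, all with both agents: 2 and 0 at 3 h, 2 and 3 at 9 h, and 4 and 3 at 15 h, and no tag in the other 14 libraries. Against CpG it rose by at least 4.61-fold (floor of 3 tags over the group), with an edgeR adjusted p of 0.0294. Other regions that rose were chr10:68111048-68111666 with 12 of 14 tags and chr8:40108681-40108836 with 13 of 14 tags in libraries with both agents, at least 3.95-fold and 4.28-fold over CpG (edgeR adjusted p = 0.0309 and 0.0350). Of the 5 that rose, 3 lay within 50 kb of an IFN-γ-gained enhancer and 2 within 50 kb of a CpG-gained one, where 11.6% and 5.59% of all weak enhancers did. A weak enhancer near both kinds counts in each. The CpG libraries entered both these calls and the CpG-gained class, so these counts are a description and not independent support. A further region, chr16:84503812-84504085, had all 12 of its tags with both agents, in 5 libraries.

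Weak enhancers that parted the single stimuli had tags at all times. With CpG, chr4:130006139-130006382 had 1 and 2 tags at 3 h, 3 and 1 at 9 h, and 2 and 3 at 15 h, and it had none in the 6 libraries with IFN-γ (CpG higher by 4.06-fold or more, with an edgeR adjusted p of 0.0224). The mirror case was chr16:21230436-21230731, with none in the 6 libraries with CpG, and with IFN-γ 1 and 2 tags at 3 h, 3 and 3 at 9 h, and 1 and 3 at 15 h (CpG lower by 4.26-fold or more, with an edgeR adjusted p of 0.0103). Likewise chr19:17154136-17154407 had no tag with CpG and 11 with IFN-γ, with 1 or 2 in each of the 6 IFN-γ libraries (CpG lower by 3.61-fold or more, with an edgeR adjusted p of 0.0184). Of the 15 weak enhancers lower with CpG than with IFN-γ, 7 lay within 50 kb of an IFN-γ-gained enhancer and none near a CpG-gained one. Of the 6 higher with CpG, 2 lay near a CpG-gained one and none near an IFN-γ-gained one. Among all weak enhancers, 11.6% lay near an IFN-γ-gained enhancer and 5.59% near a CpG-gained one. The same IFN-γ and CpG libraries gave both the calls and the neighbour classes, so these counts are a description and not independent support.

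The weak enhancers called lower after stimulation are shown by 4 examples. The region chr13:13556320-13556476 had no tag in the 6 libraries with both agents or the 6 with IFN-γ, 4 tags with CpG, and 3 and 4 tags in unstimulated cells. It fell by both contrasts, at least 6.86-fold with both agents and at least 6.88-fold with IFN-γ (edgeR adjusted p = 0.0217 and 0.0436). The region chr1:132063439-132063726 had 1 tag with both agents, 3 with CpG, none with IFN-γ, and 5 and 3 tags in unstimulated cells, and fell at least 7.87-fold with IFN-γ (edgeR adjusted p = 0.0243). In chr14:31506940-31507147 all 7 unstimulated tags came from replicate 2, and the edgeR adjusted p for IFN-γ was 0.0380 although the other unstimulated library had none. The region chr19:53301159-53301603 had 1 tag with both agents and 2 and 6 in unstimulated cells, a ratio of 23.5-fold with an exact 95% counting interval of 3.15 to 1043 (edgeR adjusted p = 0.0234). Of the 25 weak enhancers called lower than in unstimulated cells, 6 lay within 50 kb of an IFN-γ-lowered enhancer and 1 near an IFN-γ-gained one, where 6.94% and 11.6% of all weak enhancers did. The unstimulated libraries entered both the calls and the neighbour classes, so these counts are a description and not independent support.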

How the data were processed

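The authors deposited raw tag counts of 11222 enhancers in 20 nAnT-iCAGE libraries and a second table in RPM, scaled to whole libraries: raw counts over deposited RPM values gave 1 total per library. Reads were handled on mm39 with Trimmomatic 0.38, HISAT2 2.1.0, BWA 0.7.10 and FastQC 0.11.5, per the submitters' processing notes; the program that called enhancers is not given in the sources used here. Groups came from the titles and characteristics.

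Weak enhancers were summed per library and divided by the whole-library total. Pools were compared by exact two-sided permutation of libraries within times (within stimuli for 15 h against 3 h) on log2 values, in Python 3.11.15 with scipy 1.17.1. Single enhancers were tested in R 4.3.3 with edgeR 4.0.16 (robust quasi-likelihood F-test, TMM, 1 coefficient per group, Benjamini-Hochberg over all enhancers, adjusted p under 0.05) on the counts with no filter. Neighbour classes came from the same test after filterByExpr (minimum count 5, minimum total 15), which left 2792 enhancers and 0 weak ones. The edgeR test was tried on 1 draw of simulated counts of all 11222 enhancers, with 50 weak enhancers and 50 others raised with CpG at each of 2 folds. The raised weak enhancers were taken from those with 10 to 14 tags. For CpG against IFN-γ averaged over times it found 2% of the raised weak enhancers at 4-fold and 2% at 8-fold. Of the raised other enhancers it found 16% and 60%. Distances run between the nearest ends of 2 regions. Folds against a group without tags use a floor of 3 tags over the group and, like intervals, cover counting error alone.

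The members, classes and tests were chosen with earlier results of these data known. Lowered neighbours, distance rings and the held-out reading were added after the data were seen. Named enhancers were, for each comparison, up to 3 called each way with the smallest adjusted p. The 3 with the most tags per stimulus and the 3 in the most libraries were named too. Near each kind of gained enhancer 3 were named for the most tags, and all of these had 14. Another 1 each of 14 and 15 tags was named, and the text prints a part of all these. Alternatives were other tag limits (10 and 20), members chosen on the other replicate number, equal weights, tagged or not, TMM sizes, the replicate block, windows of 10 and 200 kb, RLE factors, whole-library totals, a minimum total of 10, DESeq2 1.42.0 and leaving out each library. Genes and sequences at the enhancers were not analysed here, because the genome at hand is an older build than mm39. Positions are as deposited, and whether their first base is 0 or 1 is not stated.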

Additional observations from a re-analysis of the deposited data

Results flagged for a closer look

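The log2 difference of the pooled weak enhancer RPM between both agents and CpG had opposite signs at different times, with both libraries of one group beyond both of the other: it was 0.653 at 3 h and 0.342 at 15 h, and -0.337 at 9 h. The difference between the times was not tested. The weak to other enhancer ratio did the same between both agents and IFN-γ, with log2 differences of 0.227 at 3 h and -0.103 at 9 h, and this was not tested either. Replicate 2 of both agents at 3 h and at 15 h was among the 3 libraries with the most enhancer tags. Without those 3 libraries, the pooled RPM difference of both agents against CpG, averaged over times, was 0.03. The part of these libraries in the values at single times was not tested.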

How the results depend on the processing

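Of 687 alternatives tried, 605 kept the direction and the side of the threshold or a count within 1.5 times, and 225 of these are counts of calls at a single time that were 0 in both. The others were 1 that no longer passed, 5 that newly passed, 24 that changed sign and 52 counts that moved by more than 1.5 times. Leaving out each library, both agents against CpG near IFN-γ-gained enhancers gave 0.99 to 1.07 and both agents against IFN-γ near CpG-gained enhancers 0.99 to 1.26. Near IFN-γ-lowered and CpG-lowered enhancers the ranges were -0.81 to -0.70 and -0.73 to -0.59. With whole-library totals the CpG-lowered reading was -0.338 and no longer passed. With 10 kb windows the 2 readings near gained enhancers were 1.32 and 1.37, and with 200 kb windows 0.62 and 0.79.

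Small differences changed sign. Stimulated against unstimulated RPM was 0.0591 with members counted as tagged or not and 0.0390 with TMM sizes, and -0.11 to 0.00548 leaving out each library; 15 h against 3 h was -0.00673 with TMM sizes. Both agents against IFN-γ passed before adjustment without the 3 libraries of highest enhancer totals (0.325), and ranged over 0.30 to 0.52 leaving out each library. CpG against IFN-γ passed with members under 10 tags (0.267) and without those 3 libraries (0.296), and ranged over 0.0892 to 0.296. The weak to other ratio of stimulated against unstimulated libraries was -0.00460 with equal weights, -0.0320 as tagged or not and -0.00826 without the 3 libraries, and -0.000359 to 0.0434 leaving out each. Both agents against CpG gave -0.0362 under 10 tags, -0.00432 with members chosen on the other replicate number and -0.0347 without the 3 libraries, and -0.0106 to 0.0661 leaving out each. CpG against IFN-γ ranged over -0.00333 to 0.0593. The ratio of 15 h against 3 h gave 0.00260, 0.0110 and 0.0114 with the other replicate number, as tagged or not and without the 3 libraries, and -0.0413 to 0.0354 leaving out each.

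Counts of called weak enhancers moved. IFN-γ against unstimulated cells (4) gave 2 with RLE factors, 10 with whole-library totals, 7 with a minimum total of 10 and 0 without the 3 libraries, and 0 to 4 leaving out each. Both agents against unstimulated cells (23) gave 0 without the 3 libraries and 1 to 23 leaving out each. Both agents against CpG (5) gave 1 and 0 to 6. Both agents against IFN-γ (0) gave 1 with whole-library totals or a minimum total of 10 and 0 to 1 leaving out each. CpG against IFN-γ (21) gave 32 with a minimum total of 10, 3 without the 3 libraries and 3 to 21 leaving out each. The cause was not tested.

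Same-numbered libraries of different groups did not visibly deviate together (45 group pairs, r of -0.0529 to 0.0469). In the summed pool, the counting intervals of the 2 replicates overlapped in only 5 of the 10 groups. In single enhancers of 10 or more tags in the pair, replicates differed by little more than counting error. There the chi-square per degree of freedom was 1.10 to 1.29. A low r therefore cannot exclude that the numbers pair the samples. With the replicate block the counts were 1, 10, 3 and 11 for IFN-γ and both agents against unstimulated cells, both agents against CpG and CpG against IFN-γ, and no other call changed. With the block, the smallest p that a pool test within 3 times or 3 stimuli can give is 0.0312, whatever the values. No weak enhancer was called at a single time, and the part of depth in this was not tested.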
